A study of Mus musculus with 6 samples.

Results

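Endothelial cells line the blood vessels of the brain, and 10 genes of their junctions, receptors, transporters and secreted proteins were followed here in RNA from brainstem motor neurons: Cldn5, Cdh5, Pecam1, Esam, Flt1, Kdr, Tek, Slco1a4, Slc2a1 and Vwf. Each probe set that the platform annotation pairs with exactly 1 of these symbols was taken, which gave 16 of the 45037 non-control probe sets on the array. A probe set is a group of short array probes that together read 1 transcript.

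The SOD1 samples were 3 RNA samples from motor neurons of SOD1 mice, compared with 3 from wild-type (WT) mice. The SOD1 gene encodes an enzyme that removes superoxide and is mutated in some families with amyotrophic lateral sclerosis. The sources used here do not give the allele, the promoter of any transgene, the strain or the age of the mice, nor how the motor neurons were collected. All 6 RNA samples, from brainstem, went through 2 rounds of T7-based amplification, and since no label states that each sample was a different animal, the p-values cover the spread among these samples alone, which may be technical.

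Brain endothelial cells are sealed to each other by tight and adherens junctions, and together with transporters that carry chosen solutes this forms the blood-brain barrier. Vascular endothelial growth factor (VEGF) and angiopoietin act on them through receptor tyrosine kinases. Capillaries run close to motor neurons, and some of these genes, such as Kdr and Slc2a1, are also made by neurons or astrocytes. In bulk RNA of this kind, fewer endothelial cells and less RNA of a gene per cell cannot be told apart.

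Median signals before normalisation ranged over 267 to 300.3 in SOD1 arrays and 301 to 315 in WT arrays, without overlap. On the log2 scale they were 8.17 ± 0.09 in SOD1 and 8.28 ± 0.04 in WT (SD, n = 3 each, exact two-sided permutation p = 0.1, the smallest possible). This difference cannot be told apart from genotype, and 3 arrays a group limit the precision. Motor neuron markers were present in both groups: the summed signal of the 15 tested lay between 617400 and 692800 in SOD1 and between 670900 and 743300 in WT. The 2 SOD1 arrays of replicates 1 and 2 stood apart in Xist, the RNA of the inactive X chromosome, at 12.83 and 12.91 (mean log2 signal of its probe sets). SOD1 replicate 3 was at 5.71, and the WT arrays lay between 5.76 and 7.07. Xist was thus high on 2 of 3 SOD1 arrays and on 0 of 3 WT arrays, and whatever differs with it cannot be fully told apart from genotype. The difference between 3' and 5' control probe sets, a sign of RNA length, was 4.58 ± 0.34 in SOD1 and 4.78 ± 0.39 in WT for Actb (log2, SD, n = 3 each, exact two-sided permutation p = 0.6, where 0.1 is the smallest possible). For Gapdh it was 3.48 ± 0.21 in SOD1 and 3.83 ± 0.75 in WT (exact two-sided permutation p = 0.7). WT replicate 1 was at 4.68 for Gapdh, and the other arrays lay between 3.28 and 3.70.

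Promoter sequences were printed for the growth factor receptors Flt1 and Kdr, which are neighbours in function, and for Cldn5, the junction gene with the lowest estimate. They are RefSeq sequences of GRCm38.p6, from 250 bases before to 50 bases after the start that the promoter table gives, 5′ to 3′ on the strand of the gene. That start is the outermost 5′ end of the RefSeq gene record for Cldn5, but lies 427 bases inside it for Flt1 and 617 bases inside it for Kdr. Of the 10 genes, 6 had a sequence in the table used. Capitals mark GGAAG or its reverse complement CTTCC, a form of the core that ETS transcription factors such as Erg, Fli1 and Ets1 bind in many endothelial genes.
Flt1, chr5:147725962-147726261, minus strand: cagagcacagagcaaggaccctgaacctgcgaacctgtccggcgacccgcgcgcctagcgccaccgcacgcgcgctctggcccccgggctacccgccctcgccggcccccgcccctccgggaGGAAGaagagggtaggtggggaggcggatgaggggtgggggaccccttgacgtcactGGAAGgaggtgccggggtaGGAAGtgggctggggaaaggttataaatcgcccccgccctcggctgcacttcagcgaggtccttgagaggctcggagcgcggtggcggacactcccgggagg
Kdr, chr5:75978406-75978705, minus strand: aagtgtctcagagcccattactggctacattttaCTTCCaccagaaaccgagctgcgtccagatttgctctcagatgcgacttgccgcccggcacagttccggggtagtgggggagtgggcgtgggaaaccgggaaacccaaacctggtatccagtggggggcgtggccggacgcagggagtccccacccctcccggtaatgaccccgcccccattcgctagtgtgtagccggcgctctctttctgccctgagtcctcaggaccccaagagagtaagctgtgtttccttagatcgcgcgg
Cldn5, chr16:18776597-18776896, plus strand: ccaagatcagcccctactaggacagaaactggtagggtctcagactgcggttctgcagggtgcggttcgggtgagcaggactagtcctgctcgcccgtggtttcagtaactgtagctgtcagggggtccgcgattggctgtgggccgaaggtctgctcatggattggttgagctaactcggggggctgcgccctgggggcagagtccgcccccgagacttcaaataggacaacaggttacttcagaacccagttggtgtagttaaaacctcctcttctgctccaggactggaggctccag
This form of the core was matched 3 times in the Flt1 window, 1 time in that of Kdr and 0 times in that of Cldn5. Of 32851 mouse promoter windows of the same length, 71.4% hold it. Shorter or other forms of the core were not searched, so these counts do not rank the windows by it. The Flt1 window also holds the cyclic AMP response element TGACGTCA, whose first base lies 81 bases before the start and which 1.79% of all windows hold, and TATAAA 31 bases before the start, which 13.6% hold. None of these matches overlaps another. CCAAT or its reverse complement was matched 2 times in the Cldn5 window, and 37.4% of all windows hold it at least once. The GC box GGGCGG was matched 3 times in the Flt1 window, 2 times in that of Kdr and 1 time in that of Cldn5, and 35.7% of all windows hold it. The SOX motif AACAAT, which 10.7% hold, was matched 0 times in each of these windows. Both strands were searched for each of the 6 motifs, and a match is a description of these letters only.

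The endothelial genes had lower estimates in SOD1, by unequal amounts. A single probe set of Flt1 passed the test, the estimates for Vwf and Cldn5 were of similar size without passing it, and those for Kdr, Tek, Slco1a4 and Slc2a1 lay within the spread between arrays. Values are log2 of the signal plus 16 after quantile normalisation, and changes are SOD1 minus WT with their SE (n = 3 each), from limma fitted on 27022 probe sets with Benjamini-Hochberg adjustment over all of them. Of the 16 endothelial probe sets, 13 passed the filter on low signal, which was a mean over all arrays above 7.38. Each of these 13 also had a SOD1 mean above that level.

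Among the 13, 1 was lower in SOD1 at an adjusted p under 0.05, against 0.122% of all 27022 probe sets called lower (33 probe sets) and 0.185% called in either direction (50). With median centring in place of quantile normalisation, 22 of the 41 probe sets called over the whole array were lower. The 3 SOD1 arrays lay below all 3 WT arrays for 4 of the 13, against 9.81% of all probe sets. All 13 had a lower estimate in SOD1, against 50.5% of all probe sets, and 4 had a lower estimate at an unadjusted p under 0.05, against 7.58%. Their median change was -0.53, against -0.01 for all probe sets tested. By gene, with the probe set of the highest mean, all 9 had a lower estimate, against 51% of 13123 genes, and 3 of the 9 did not overlap between the groups, against 11.2%. These 13 probe sets stand for 9 genes, since Flt1 and Slc2a1 have 3 each, so they are not independent of each other. The genes were also chosen with earlier results of these data known, so these shares describe them and are no test of the set.

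**Figure D1:**
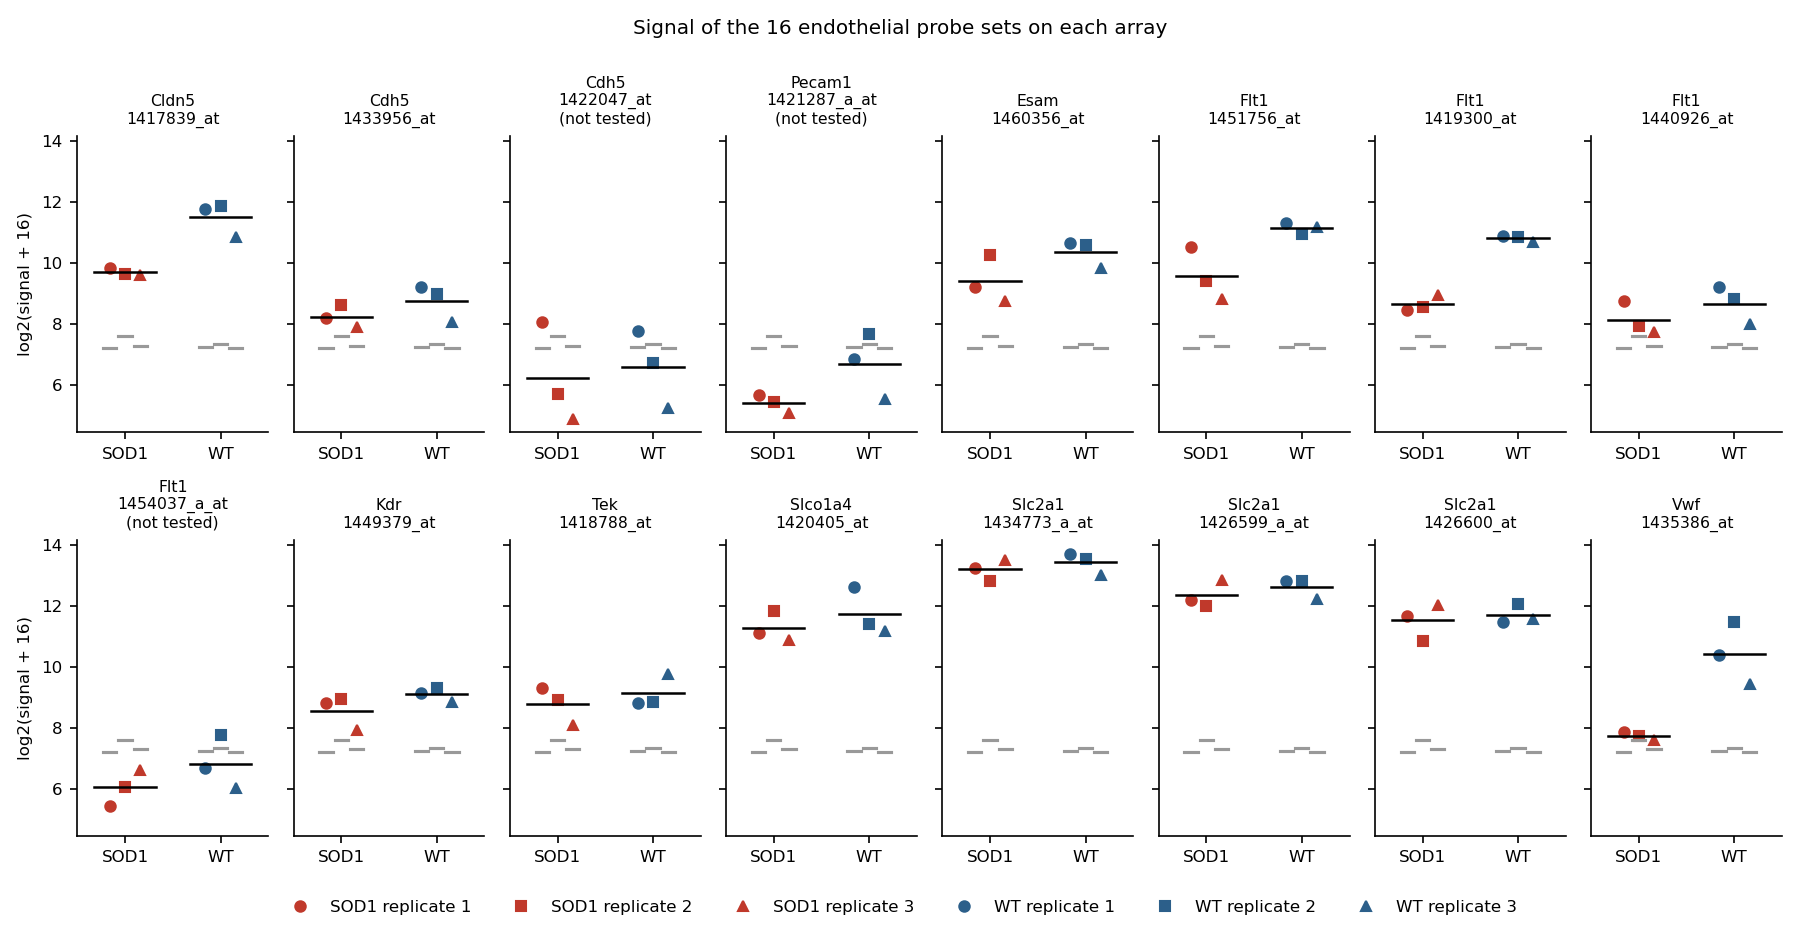
Log2 signal of each of the 16 endothelial probe sets on the 3 SOD1 (red) and 3 WT (blue) arrays, with the group mean as a black line and the background level of each array, from bacterial control probe sets, as a grey bar. The groups do not overlap for Cldn5, Vwf and 2 probe sets of Flt1, and the 3 Slc2a1 panels show overlapping groups.

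Flt1 encodes a receptor that binds VEGF tightly and, in its soluble form, keeps it from other receptors. Probe set 1419300_at read 8.47, 8.57 and 8.96 on the SOD1 arrays, against 10.88, 10.83 and 10.69 on the WT arrays. Every SOD1 array was thus well below every WT array, and the WT arrays lay close together, with an SD of 0.10. Flt1 fell 4.40-fold by this probe set (log2 change -2.14 ± 0.34, limma, adjusted p = 0.0352). The estimate stayed between -2.27 and -2.04 when each array was left out in turn, but the adjusted p then lay above 0.05 in every case: 0.0643, 0.111 and 0.0627 without SOD1 replicates 1, 2 and 3, and 0.154, 0.194 and 0.0591 without WT replicates 1, 2 and 3.

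The 3 other Flt1 probe sets had lower estimates too, with less certainty. Probe set 1451756_at read 10.53, 9.42 and 8.81 in SOD1, against 11.30, 10.94 and 11.16 in WT, again without overlap but with a wide spread among the SOD1 arrays. Its change was -1.55 ± 0.42 (limma, adjusted p = 0.147). Probe set 1440926_at was at -0.53 ± 0.52 with overlapping groups. The last, 1454037_a_at, was below the filter and above background on 0 of 3 SOD1 and 1 of 3 WT arrays, so no fold is given. The mean of the Flt1 probe sets was at -1.25 ± 0.36 (limma, adjusted p = 0.150).

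Kdr, the main signalling receptor for VEGF on endothelial cells, read 8.82, 8.94 and 7.93 in SOD1, against 9.15, 9.32 and 8.84 in WT (probe set 1449379_at). The groups overlapped, since SOD1 replicate 2 was above WT replicate 3. The change was -0.54 ± 0.44 (limma, adjusted p = 0.609), with a 95% interval from -1.51 to 0.43. The difference between Flt1 (1419300_at) and Kdr within an array was -0.35, -0.38 and 1.03 in SOD1, against 1.73, 1.51 and 1.85 in WT. The groups did not overlap, the SOD1 minus WT difference was -1.60, and the exact two-sided permutation p was 0.1, the smallest that 3 against 3 arrays allow. With the other Flt1 probe set, 1451756_at, in its place, the difference was 1.71, 0.47 and 0.88 in SOD1, against 2.15, 1.62 and 2.32 in WT. The groups then overlapped, with a SOD1 minus WT difference of -1.01 (exact two-sided permutation p = 0.2). These were 2 of 3 such differences computed, all chosen after the values were seen, with adjusted exact p of 0.15 and 0.2.

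Tek, the receptor for angiopoietin that helps keep vessels quiescent, did not separate the groups. It read 9.30, 8.93 and 8.10 in SOD1, against 8.83, 8.84 and 9.77 in WT (1418788_at). Its change was -0.37 ± 0.47 (limma, adjusted p = 0.759), and it was the 1 tested probe set for which WT replicate 3 was the highest WT array.

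Cldn5 encodes claudin-5, the claudin that dominates the tight junctions of brain capillaries. It read 9.84, 9.64 and 9.59 in SOD1, against 11.76, 11.84 and 10.86 in WT (1417839_at). The SOD1 arrays lay close together (SD 0.13) and all below the WT arrays, among which replicate 3 was the lowest. The change was -1.80 ± 0.34, a signal 3.48-fold lower in SOD1, and the adjusted p of 0.0680 (limma) did not pass. Without WT replicate 3 the change was -2.11 ± 0.33 and passed (limma, adjusted p = 0.0381).

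The other junction and adhesion genes had smaller or less certain estimates. Esam, an immunoglobulin-like adhesion molecule of endothelial tight junctions, read 9.20, 10.24 and 8.74 in SOD1, against 10.64, 10.60 and 9.83 in WT (1460356_at). SOD1 replicate 2 was among the WT values, and the change was -0.96 ± 0.44 (limma, adjusted p = 0.344). Cdh5, the vascular endothelial cadherin of adherens junctions, read 8.19, 8.61 and 7.90 in SOD1, against 9.20, 8.98 and 8.07 in WT (1433956_at). Its groups overlapped, with a change of -0.52 ± 0.49 (limma, adjusted p = 0.668).

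A second Cdh5 probe set, 1422047_at, was below the filter and above background on 1 array of each group. Pecam1, the adhesion molecule CD31 of endothelial cells, platelets and leukocytes, was below the filter too. Its only probe set was above background on 0 of 3 SOD1 arrays, with values of 5.69, 5.45 and 5.10, and on 1 of 3 WT arrays, with values of 6.86, 7.69 and 5.55. No change of Pecam1 can therefore be read from this array.

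Vwf encodes von Willebrand factor, which endothelial cells store and release and which tethers platelets. It read 7.87, 7.73 and 7.61 in SOD1, against 10.39, 11.47 and 9.43 in WT (1435386_at). All SOD1 arrays were below all WT arrays, and the SD was 0.13 in SOD1 and 1.02 in WT. The change was -2.69 ± 0.51, a signal 6.46-fold lower in SOD1, with an adjusted p of 0.0683 (limma), which did not pass. The SOD1 values were above the background level, taken as the 95th percentile of the 27 bacterial controls, but below the highest of those controls on all 3 arrays, so the size of the difference is limited by the bottom of the range. Without WT replicate 3 the change was -3.18 ± 0.48 and passed (limma, adjusted p = 0.0348), while without WT replicate 2 it was -2.17 ± 0.54 (adjusted p = 0.309).

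The transporters overlapped between the groups. Slco1a4, which carries organic anions across the blood-brain barrier, read 11.09, 11.84 and 10.88 in SOD1, against 12.62, 11.40 and 11.17 in WT (1420405_at). WT replicate 1 alone stood above all SOD1 arrays, and without it the change of -0.46 ± 0.40 was -0.02 (limma, adjusted p = 0.632 with all arrays and 0.989 without it). Slc2a1, the glucose transporter of brain capillaries, which astrocytes also make, was read by 3 probe sets. The probe set with the highest signal, 1434773_a_at, read 13.25, 12.81 and 13.50 in SOD1, against 13.70, 13.54 and 13.02 in WT.

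The 3 Slc2a1 changes were -0.23 ± 0.24, -0.27 ± 0.28 and -0.17 ± 0.33 (limma, adjusted p between 0.701 and 0.854). Their 95% intervals reached from -0.90 at the lowest to 0.56 at the highest. The difference between Cldn5 and Slc2a1 (1434773_a_at) within an array was -3.41, -3.17 and -3.91 in SOD1, against -1.94, -1.69 and -2.16 in WT. The groups did not overlap and the SOD1 minus WT difference was -1.56 (exact two-sided permutation p = 0.1, adjusted 0.15, in a design that cannot go below 0.1).

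**Figure D2:**
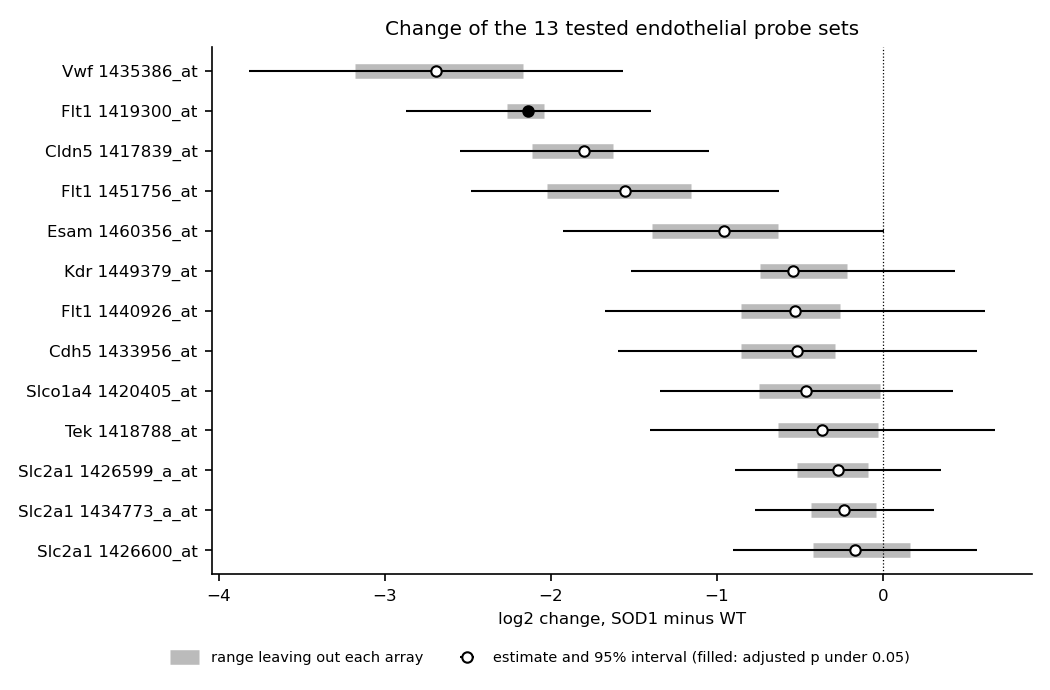
Log2 change, SOD1 minus WT, of the 13 tested endothelial probe sets (points, with 95% intervals from limma as lines) and its range when each array is left out in turn (grey bars). Flt1 1419300_at, the filled point at -2.14, passed the test, and the intervals of Vwf, Cldn5 and Flt1 1451756_at, which are not adjusted for multiple tests, also lie below 0.

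Within a group, many member probe sets were lowest on the same array, which in neither group was particular to them. Of the 13 tested probe sets, SOD1 replicate 3 was the lowest SOD1 array for 9 and WT replicate 3 the lowest WT array for 10. The mean of the 9 tested genes, each centred on its mean over the arrays, was -0.32, -0.32 and -0.88 in SOD1, against 0.73, 0.66 and 0.13 in WT. In the marker lists described below, WT replicate 3 was also the lowest WT array for microglial and myeloid markers, at -2.33. The same held for oligodendrocyte markers, at -0.76, but not for motor neuron markers, at 0.01. SOD1 replicate 3 was the lowest SOD1 array for pericyte and smooth muscle markers, at -1.55, and meningeal fibroblast markers, at -1.15. It was also the lowest for microglial and myeloid markers, at 0.98. It was not the lowest for vascular ligands, the remaining endothelial markers, or platelet, motor neuron, and choroid plexus and ependymal markers. The share of all probe sets lowest on each array is not given here.

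With the Xist signal as a covariate, Flt1 (1419300_at) was at -1.91 ± 0.43 (limma, adjusted p = 0.104), Cldn5 at -1.95 ± 0.45 (0.108) and Vwf at -2.89 ± 0.68 (0.114). Of the 13, 0 passed, against 52 of all 27022 probe sets. An unadjusted p under 0.05 was reached by 5 of the 13, against 3927 of the 27022 (limma). SOD1 replicate 3 alone was also compared with WT, which was added after the data were seen. Flt1 (1419300_at), Cldn5 and Vwf were then at -1.85, -1.89 and -2.86. Kdr and Tek were at -1.21 and -1.07, larger than their estimates over all arrays. The lone SOD1 array is assumed there to vary like the WT arrays. The 3 Slc2a1 estimates were then above 0, at 0.0816, 0.23 and 0.33.

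Other genes of the same cells were taken from lists, with 1 probe set a gene, the one with the highest mean. Over all 13123 genes treated this way, 0.274% passed in either direction and the median change was -0.01. None of the 101 other endothelial and vascular genes tested passed (limma). Lower estimates were found for 67 of the 101, against 51% of the 13123 genes, and their median was -0.28. An unadjusted p under 0.05 was reached by 18 of them, 16 with a lower estimate (limma). Over all 27022 probe sets, 3962 reached it in either direction, and 7.58% did with a lower estimate. Those 2 shares are by probe set and not by gene. The lists were named after cell types and roles, and several of their genes are also made by other brain cells.

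Transcription factors of endothelial cells had lower estimates in SOD1 for 14 of the 15 tested, with a median of -0.59. Sox17, which shapes arterial endothelium and is read here by a probe set whose suffix marks possible cross-hybridisation, had 9.14, 8.89 and 7.39 in SOD1, against 10.28, 10.53 and 10.84 in WT. The groups did not overlap, and the change of -2.08 ± 0.48 did not pass (limma, adjusted p = 0.116). Klf4, a factor that vessels use in response to flow, was at -1.55 ± 0.42 (0.146). Erg, Fli1, Sox7 and Lef1 were below the filter.

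Other endothelial receptors had a median of -0.26 over 21 genes, of which 14 had lower estimates. Thbd, thrombomodulin, an anticoagulant receptor of the vessel wall, read 6.84, 7.01 and 6.54 in SOD1, not above background on any array, against 9.97, 9.44 and 8.17 in WT. Taking the background level as the lowest readable signal, its estimate was at least 3.53-fold lower in SOD1. This bound leaves out the spread among arrays. The measured log2 change had a 95% interval from -3.70 to -1.09 and did not pass (limma, adjusted p = 0.131). Ackr1, a receptor that binds chemokines without signalling, was at -0.73 ± 0.19 (0.143). Ligands of vessels had a median of -0.24 over 14 genes, 10 of them with lower estimates. Among them Pgf, a ligand of Flt1, was at -1.01 ± 0.33 (limma, adjusted p = 0.205), and Angpt2, a ligand of Tek, at -1.26 ± 0.65 (0.398), with 1 of 3 SOD1 arrays above background.

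Other transporters of brain endothelium were close to even, with lower estimates for 12 of 21 and a median of -0.18. Slc38a5, an amino acid transporter, read 6.75, 7.64 and 6.42 in SOD1, against 10.57, 9.54 and 8.03 in WT. It was above background on only 1 of the 3 SOD1 arrays, so the size of its estimate, -2.45 ± 0.68, is uncertain, and it did not pass (limma, adjusted p = 0.152). Abcc4, a drug efflux pump, was at -1.002 ± 0.287 (0.159). Other junction and adhesion genes had a median of 0.08 over 12 genes, with 5 lower. Cd34, an adhesion glycoprotein of endothelium, was at 1.16 ± 0.47 (0.287) and Cldn12, another claudin, at 0.44 ± 0.25 (0.458). The remaining endothelial markers had a median of -0.41 over 18 genes, with 12 lower, and Tm4sf1 was at -1.59 ± 0.47 (0.168) and Spock2 at -0.99 ± 0.30 (0.171).

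**Figure D3:**
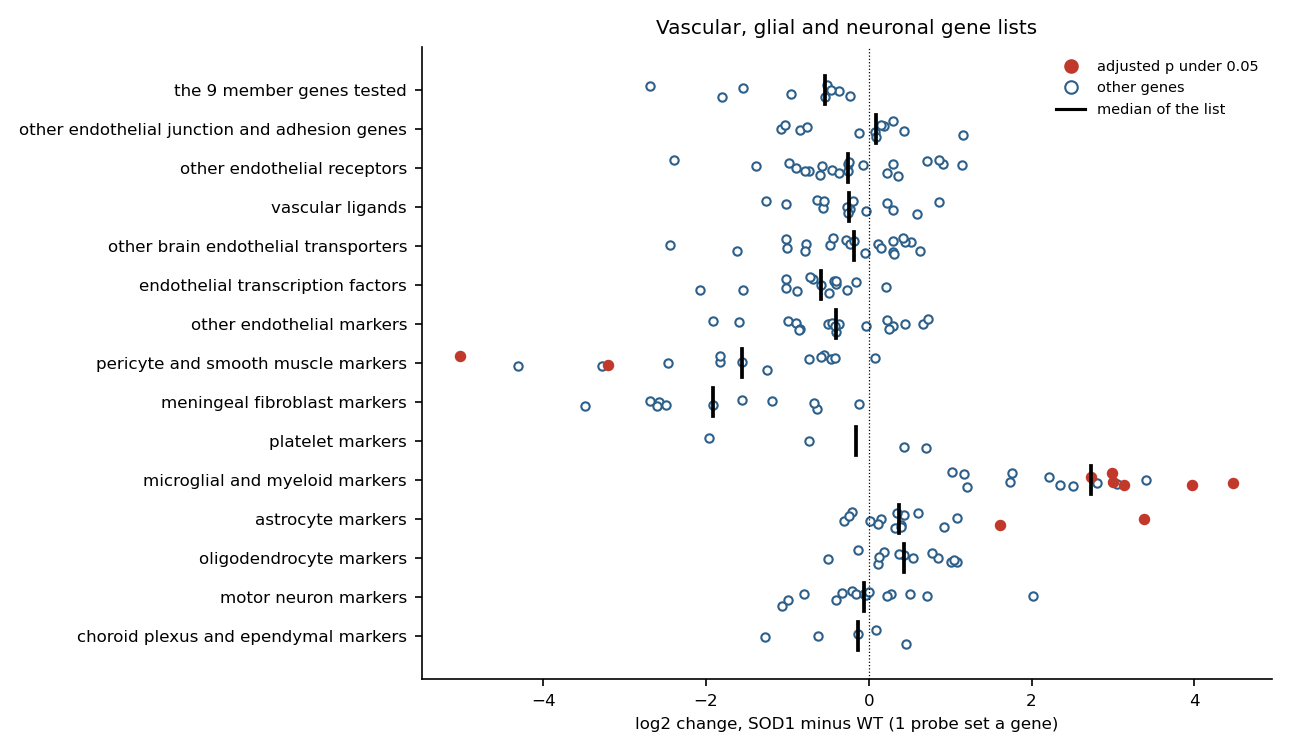
Log2 change, SOD1 minus WT, of the 9 tested endothelial member genes and of genes in 14 other lists, 1 probe set a gene (that with the highest mean, so Flt1 is shown by 1451756_at), with the list median as a black line. Medians were -0.54 for the members, -1.56 for pericyte and smooth muscle markers and -1.91 for meningeal fibroblast markers, and filled points passed the test.

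Markers of other cells of the vessel wall and its surroundings had lower estimates beside the endothelial genes. Of 15 pericyte and smooth muscle markers, 14 had lower estimates in SOD1, the median was -1.56, and 2 passed: Acta2, smooth muscle actin, at -5.02 ± 0.77, and Tpm2, a tropomyosin, at -3.20 ± 0.49 (limma, adjusted p = 0.0327 each). The summed signal of this list lay between 7338 and 22160 in SOD1 and between 33070 and 94320 in WT. The list pools contractile genes, such as Acta2 and Tpm2, with pericyte genes, which were uneven. Among the pericyte genes, Pdgfrb and Vtn were at -1.83 each, Rgs5 at -0.46, Kcnj8 at -0.41 and Abcc9 at 0.07, none past the test. Pdgfrb and Kcnj8 were above background on 2 of 3 SOD1 arrays. The list median is therefore not an estimate for pericytes. All 11 meningeal fibroblast markers had lower estimates, with a median of -1.91 and 0 past the test, as for Col3a1, a fibrillar collagen, at -3.48 ± 0.80 with 2 of 3 SOD1 arrays above background (limma, adjusted p = 0.116) and Col1a2 at -2.58 ± 0.67 (0.138). Their summed signal, from 10010 to 62660 in SOD1 and from 28670 to 111000 in WT, overlapped between the groups. Anpep, Cnn1 and Ndufa4l2 of the first list were below the filter, all members of the second were tested, and their part in the endothelial values was not tested.

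All 5 red cell markers read by the array with 1 symbol were below the filter, as were 4 of 8 platelet markers, among them Ppbp, Gp9 and Gp6, and the 4 platelet markers tested had a median of -0.15, with 0 past the test and a summed signal from 2504 to 3027 in SOD1 and from 2099 to 4189 in WT. Gp5, a platelet glycoprotein, was at -1.97 ± 0.69 with 1 of 3 SOD1 arrays above background (limma, adjusted p = 0.232), and Itga2b, an integrin of platelets, at 0.70 ± 0.43 (0.488). Choroid plexus and ependymal markers had a median of -0.13 over 5 genes, with 0 past the test, and Kcnj13 was at -1.28 ± 0.86, with 2 of 3 WT arrays above background, and Clic6 at 0.46 ± 0.45. Genes of glia lay the other way. All 17 microglial and myeloid markers tested had higher estimates in SOD1, with a median of 2.73 and 6 past the test, C1qa, Ctss, Tyrobp, Fcgr3, Ptprc and Ly86. Among them C1qa, a complement subunit, rose by 3.00 ± 0.37 and Ctss, a lysosomal protease, by 2.73 ± 0.35 (limma, adjusted p = 0.0222 and 0.0268).

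The summed microglial signal lay between 124700 and 240300 in SOD1 and between 11580 and 49010 in WT. Of 16 astrocyte markers, 13 had higher estimates and 2 passed, Aqp4 at 1.61 ± 0.22 and Gfap at 3.38 ± 0.47 (limma, adjusted p = 0.0317 each), with a summed signal from 363200 to 373100 in SOD1 and from 299800 to 329200 in WT. Oligodendrocyte markers had a median of 0.44 over 13 genes, and motor neuron markers a median of -0.06 over 15, with 0 past the test in both. Ache and Slc18a3, genes of cholinergic transmission, were at -1.06 ± 0.25 and -0.996 ± 0.249 (limma, adjusted p = 0.117 and 0.131), and Ugt8a and Cnp, genes of myelin, at 1.01 ± 0.25 and 0.44 ± 0.11 (0.123 and 0.137). The part of these shifts in the share of endothelial RNA was not tested.

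**Figure D4:**
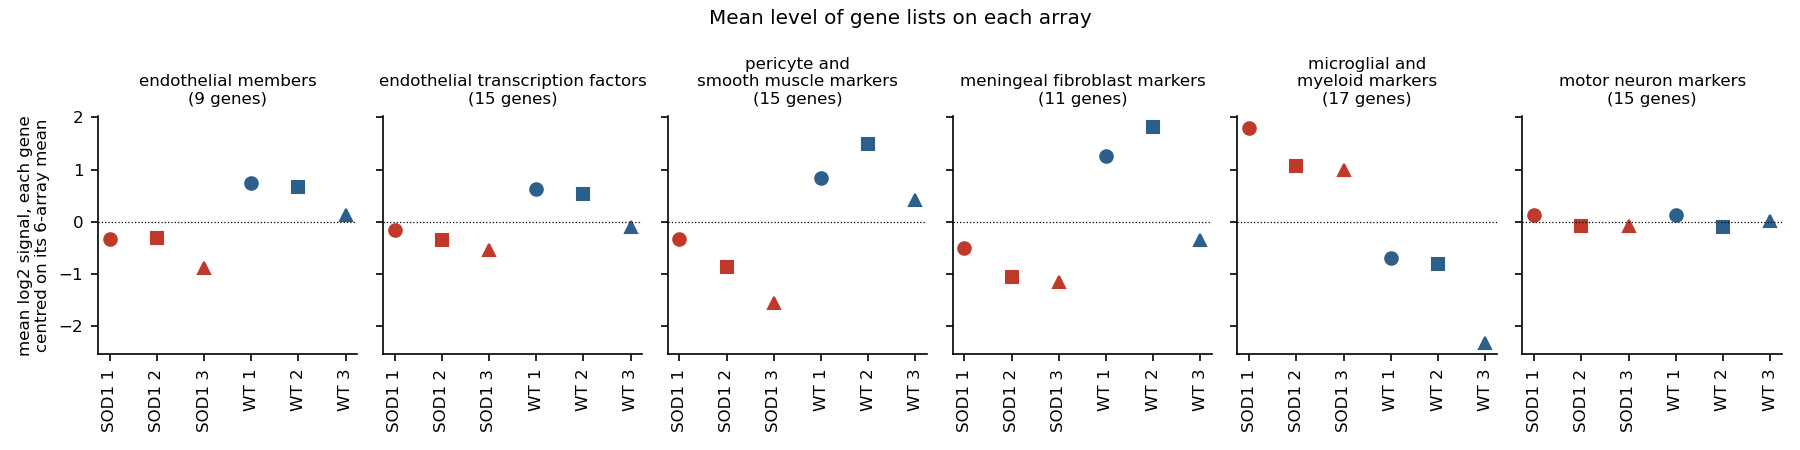
Mean log2 signal of 6 gene lists on each SOD1 (red) and WT (blue) array, each gene centred on its mean over the 6 arrays. The endothelial members lay between -0.88 and -0.32 in SOD1 and between 0.13 and 0.73 in WT, and WT replicate 3 was the lowest WT array in 5 of the 6 lists shown, motor neuron markers being the exception.

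The genes whose pattern was most like the mean of the members were sought among 23100 probe sets that are not members, by the root-mean-square difference of centred log2 values over the 6 arrays. The 5 nearest were Zfp385a (0.076), Atxn2 (0.0892), Kcna2 (0.097), Chst12 (0.0975) and Phlda1 (0.111). The 5 nearest to Cldn5 were Pqbp1 (0.226), Reck (0.247), Fzd2 (0.273), Grasp (0.281) and Foxp1 (0.286). Among these, Kcna2, a potassium channel gene, read 13.59, 13.64 and 13.10 in SOD1, against 14.74, 14.49 and 14.28 in WT, with a change of -1.06 ± 0.20 (limma, adjusted p = 0.0651). Pqbp1 alone among these genes passed, at -1.92 ± 0.20 (limma, adjusted p = 0.0139). The suffix of its probe set marks possible cross-hybridisation. The measure describes a likeness over 6 arrays and no more.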

How the data were processed

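The authors deposited linear signal intensity values without detection calls, for 45101 probe sets on 6 arrays; per the labels' protocols the RNA was amplified in 2 rounds. The algorithm and genome build are not stated there. The mean signal with 2% trimmed at each end was 2500.02 on each array (to 2 decimals), so the deposited intensity values had been scaled.

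The 64 controls were left out. Because array medians of log2 signal differed by 0.24, over the limit of 0.1, signals were quantile normalised, 16 was added and log2 taken. The 27022 probe sets whose mean log2 lay over the 40th percentile were fitted with limma 3.58.1 in R 4.3.3 (lmFit, eBayes with a variance trend, two-sided, Benjamini-Hochberg adjustment over all, threshold 0.05). The background level of an array was the 95th percentile of 27 bacterial controls, chosen after the data were seen. Of the 45037 probe sets, 34945 had 1 gene symbol, 932 had several and 9160 were unlisted. All 16 endothelial probe sets carried Entrez IDs that matched the RefSeq table with the same symbol.

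The members and lists were chosen with earlier results of these data known. All probe sets of the 10 genes were accounted for. Of each other list, genes past the threshold and the 2 with the smallest p were named, as were the 5 genes nearest in pattern. Some pericyte genes were named outside this rule, to show the spread within their list. The fit was tested on simulated data (5 draws of the 27022 probe sets, 200 of them altered): it recovered 10.4% of log2 changes of 1, 46.4% of 2, 74.8% of 3 and 87.2% of 4, and 5.03% of its calls were false. Motifs and figures were made with Python 3.11.15 and matplotlib 3.10.9. Alternatives are described in the closing section.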

Additional observations from a re-analysis of the deposited data

How the results depend on the processing

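The number of probe sets called over the whole array was 50, and was 87 with a pseudocount of 64, 106 with a filter at the 60th percentile, 100 with array weights, 25 without probe sets of suffix _s_at, _x_at or _a_at, 191 at an adjusted p of 0.1, 11 with probe sets averaged by gene, and 0 without the variance trend (limma; 3247 at an unadjusted p under 0.05). It lay between 0 (without WT replicate 2; 2659 at an unadjusted p under 0.05) and 79 (without WT replicate 3) when each array was left out, with 35, 6 and 29 without SOD1 replicates 1, 2 and 3 and 9 without WT replicate 1. The number of endothelial probe sets called was 1. It was 3 with the filter at the 60th percentile, with array weights or at an adjusted p of 0.1. It was 0 with no filter (48 over the whole array), no variance trend, the Xist covariate (52 over the whole array) or gene means. It lay between 0 and 2 when each array was left out. In each setting fitted per probe set, 4 or 5 endothelial probe sets had an unadjusted p under 0.05. Over all probe sets tested, 18015 to 45037 by setting, between 2659 and 5057 had one (limma). Flt1 (1419300_at) kept a lower estimate in all of its 19 alternatives, between -2.27 and -1.85, and passed in 8 of them (adjusted p between 0.0176 and 0.294). Cldn5 and Vwf each passed in 3 of 20 alternatives. With SOD1 and WT replicates of the same number as a replicate block, 76 probe sets and 0 endothelial ones were called, Flt1 at an adjusted p of 0.0506. Same-numbered arrays showed no sign of deviating together (r = 0.03, -0.04 and -0.01). With 3 arrays a group these r values are a weak check, and pairing in only a part of the probe sets was not tested. Among the 13 tested endothelial probe sets, Slc2a1 alone changed sign, never past the threshold: with the Xist covariate 1426599_a_at was at 0.0895 and 1426600_at at 0.24; without SOD1 replicate 2 and without WT replicate 2 1426600_at was at 0.16 and 0.02, its lowest value with an array left out being -0.42; in SOD1 replicate 3 alone the 3 probe sets were at 0.0816, 0.23 and 0.33. Of the 3 probe sets not tested, Cdh5 1422047_at changed sign too, at 0.285 without SOD1 replicate 3 and 0.223 without WT replicate 1. The cause of these changes was not tested. Signal near background limits, among others, Vwf, Thbd, Slc38a5, Angpt2, Gp5, Pecam1 and single probe sets of Flt1 and Cdh5.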
